A study of Mus musculus with 8 samples.

Results

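Muribaculaceae variants were followed in the stool of 8 female mice, 4 with the genotype ko (Gpr15l-/-, called knockouts here) and 4 with the genotype wt (called controls). Littermates of both genotypes had shared cages for 8 weeks when stool was taken, so co-housing is common to both groups, and no age, cage or litter is given for any mouse. The product of Gpr15l is a secreted protein of epithelia that binds GPR15, a receptor that guides lymphocytes. The design asks whether loss of Gpr15l goes with another stool microbiota among co-housed littermates. Bacterial 16S V4 amplicons were read and resolved into amplicon sequence variants (ASVs), which are distinct read sequences inferred from the data. An ASV belonged to the set described here if its taxonomy string named the family Muribaculaceae and it had at least 1 read in these mice. That held for 60 of the 434 ASVs with reads, and 46 of the 60 had at least 10 reads in at least 3 mice and could be tested. The other 14 held 400 reads together, each in a single mouse. ASV numbers give the position in the deposited table, and mice are numbered within their genotype in order of deposit, which pairs no knockout with a control.

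Muribaculaceae, long known as S24-7, are anaerobic Bacteroidota that are among the most abundant bacteria of the mouse gut. They degrade complex carbohydrates, both plant glycans and host mucus glycans, and ferment them to short-chain fatty acids. Many members have been cultured only recently, and databases give most of them no genus name. Here 57 of the 60 variants had no genus name (listed as incertae sedis) and 3 were assigned to Muribaculum, the type genus of the family. The unnamed variants therefore have no function that can be stated from their taxonomy, and they are described by their levels. The read sequences of the variants were not used here.

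Knockouts had 56731 to 150595 Muribaculaceae reads and controls 5250 to 43864. Total reads were 129792 to 226654 in knockouts, against 38578 to 122026 in controls, so every knockout library was deeper than every control library and depth cannot be told apart from genotype. A count of 0 allows a share of all reads of up to 0.00132% in knockout 1 and up to 0.00778% in control 2, the deepest and the shallowest library. Such limits, and the intervals given below, cover counting error only, since amplicon reads carry no molecular identifiers. Shares of reads add up to a fixed total, so a higher share of one variant and a lower share of others cannot be told apart, nor can more cells from more 16S copies per cell. Mice that shared a cage are treated as independent in every test.

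The family made up 66.4%, 48.2%, 43.7% and 65.7% of all reads in knockouts 1 to 4 and 52.5%, 13.6%, 31.2% and 35.9% in controls 1 to 4. Control 2 had the lowest share (95% Wilson interval 13.3 to 14.0%), and control 1 lay above knockouts 2 and 3, so the genotypes overlapped. The mean share was 56.0% ± 11.8 for knockouts against 33.3% ± 16.0 for controls (SD, n = 4 each). The family did not pass the test over families (log2 fold change, knockout over control, 1.50 ± 0.71 SE, edgeR adjusted p = 0.417), in which 5.13% of the 39 families tested were called. The log2 fold change was 0.75 ± 0.46 SE with total reads in place of scaling factors. It was 0.052 ± 1.43 SE when log2 library size was a covariate. Every knockout library was the deeper, so the covariate fit is imprecise and cannot decide what depth adds. Of the other Bacteroidales families on the list, Rikenellaceae was called and had a log2 fold change of -2.35 (edgeR adjusted p = 0.0301). Bacteroidaceae (log2 fold change 0.46), Prevotellaceae (0.61), Tannerellaceae (-0.38) and Marinifilaceae (-1.07) were not called, with adjusted p of 0.557 or higher.

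**Figure D1:**
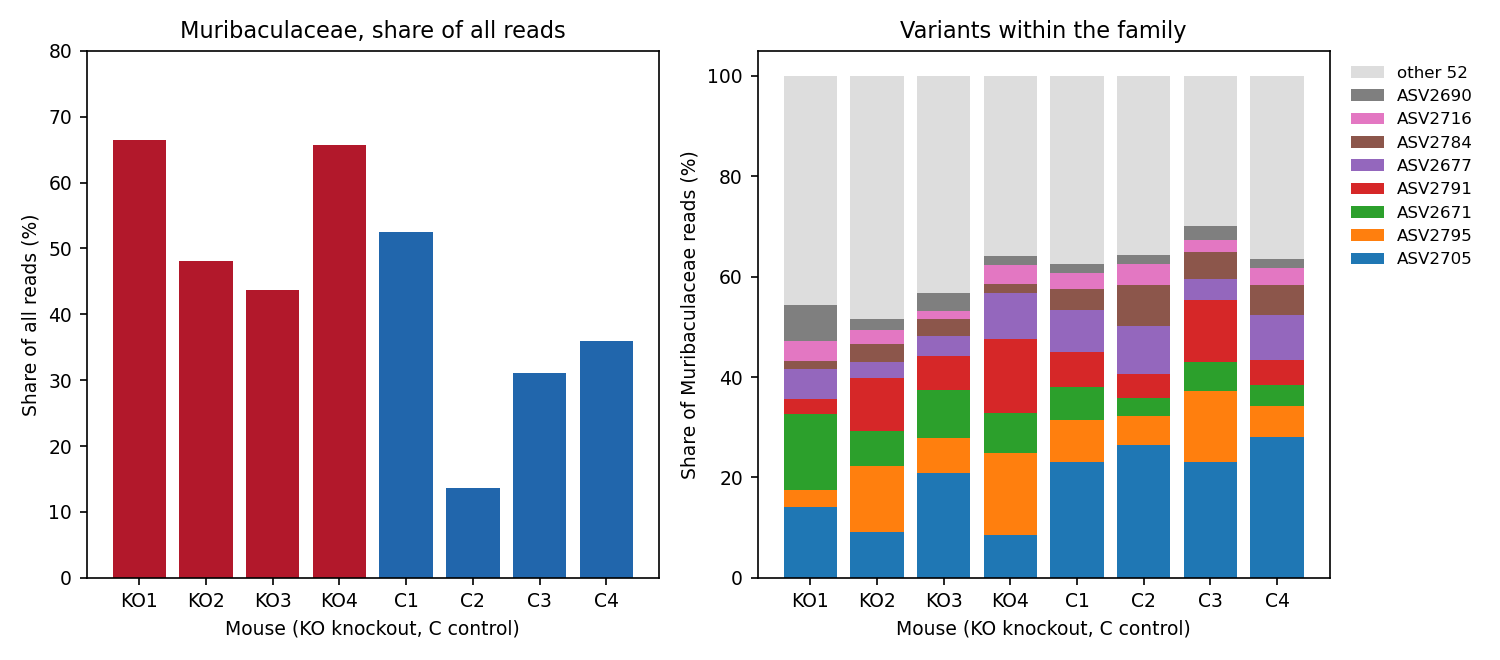
Muribaculaceae in each of the 8 mice. Left, share of all reads (%) taken by the family; right, share of the family's reads (%) taken by its 8 most abundant variants and by the other 52. ASV2705 takes 23.0 to 28.1% of family reads in controls and 8.45 to 20.8% in knockouts.

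A few variants held much of the family, and most variants were found in every mouse. The 5 most abundant variants by mean share (ASV2705, ASV2795, ASV2671, ASV2791 and ASV2677) held 50.6% of family reads on average, and the first 12 held 71.7%. At the other end, 20 variants had a mean share of all reads under 0.1% and together held 0.686% of the family. In all 8 mice 31 variants had reads, and these held 93.2% of the family's reads. Reads were seen in 1 mouse for 14 variants and in 2 to 7 mice for 15. Of the 7 variants seen in 7 mice, 6 were missing from control 2, which had the fewest family reads, and 1 was missing from knockout 1.

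ASV2705, the most abundant variant, made up 9.42%, 4.44%, 9.09% and 5.56% of all reads in knockouts 1 to 4 and 12.1%, 3.59%, 7.18% and 10.1% in controls 1 to 4. These values overlapped between genotypes. ASV2795 made up 2.16%, 6.25%, 3.08% and 10.7% in knockouts and 4.38%, 0.806%, 4.41% and 2.18% in controls. It was highest in knockout 4 and lowest in control 2, with the remaining mice of both genotypes interleaved. ASV2671 made up 10.1%, 3.40%, 4.15% and 5.32% in knockouts and 3.47%, 0.482%, 1.80% and 1.50% in controls. Knockouts 1, 3 and 4 lay above all controls, and knockout 2 lay just under control 1. ASV2791 followed ASV2795 closely, at 1.93 to 9.68% in knockouts and 0.638 to 3.85% in controls. ASV2677 ranged from 1.49 to 5.94% and from 1.27 to 4.41%, and ASV2716 from 0.717 to 2.70% and from 0.560 to 1.68%, each with overlap. ASV2717 held nearly all Muribaculum reads, with a knockout mean of 1.20% ± 0.201 of all reads and a control mean of 0.849% ± 0.476 (SD, n = 4 each). The other two Muribaculum variants were seen in 1 mouse each, ASV2721 with 306 reads in knockout 1 and ASV2718 with 2 reads in knockout 2.

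The mouse-to-mouse spread differed widely between variants. Among the 27 variants with at least 10 reads in every mouse, ASV2784 was the steadiest, with a share of all reads between 1.10% in knockout 1 and 2.18% in control 1, and an SD of its log2 share of 0.39. In control 2, where 24 of the 27 variants had their lowest share, it stood at 1.12%, just above knockout 1. ASV2705, ASV2693, ASV2729 and ASV2717 came next, with SDs from 0.62 to 0.71. ASV2745 was the most variable, with an SD of 1.69 and a level 34.5 times as high in knockout 1 (4.83%) as in control 2 (0.140%). ASV2740, ASV2671, ASV2741 and ASV2782 followed, with SDs from 1.34 down to 1.28. The median SD was 1.02 for these 27 variants and 1.17 for the 79 variants outside the family with as many reads.

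The family was less dominated by a single variant in knockouts than in controls. Each mouse's family reads were drawn down to 5250, the family total of control 2, to put all mice at the same depth. The most abundant variant then held 15.3%, 13.0%, 20.8% and 16.3% of family reads in knockouts 1 to 4 and 23.2%, 26.4%, 23.0% and 28.0% in controls 1 to 4. It was ASV2705 in every control and in knockout 3, ASV2671 in knockout 1, and ASV2795 in knockouts 2 and 4. The genotypes did not overlap, with means of 16.3% ± 3.27 and 25.1% ± 2.49 (SD, n = 4 each).

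The effective number of variants, the number of equally common variants that would give the same Shannon entropy, was 21.1, 25.0, 23.0 and 19.5 in knockouts and 18.6, 16.9, 16.1 and 17.1 in controls. Every knockout lay above every control, the closest being knockout 4 and control 1, and the means were 22.2 ± 2.38 and 17.2 ± 1.03. With all reads in place of the drawn ones, the means were 22.3 ± 2.40 and 17.2 ± 1.05. The 5 most abundant variants of each mouse held 49.7% ± 5.23 and 55.9% ± 3.46 of family reads, with overlap. At the same depth 44.3 ± 1.54 and 39.9 ± 4.98 variants were seen, also with overlap. These indices run over all members of the family and are given as descriptions, without a test. Measured the same way, the effective number overlapped between genotypes in Lachnospiraceae (30.0 ± 5.60 and 30.1 ± 9.75) and in Bacteroidaceae (4.65 ± 0.761 and 4.86 ± 0.493). The share of the most abundant variant overlapped in Lachnospiraceae but not in Bacteroidaceae, where it was 45.8% ± 4.98 in knockouts and 33.1% ± 3.04 in controls, opposite in direction to Muribaculaceae.

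**Figure D2:**
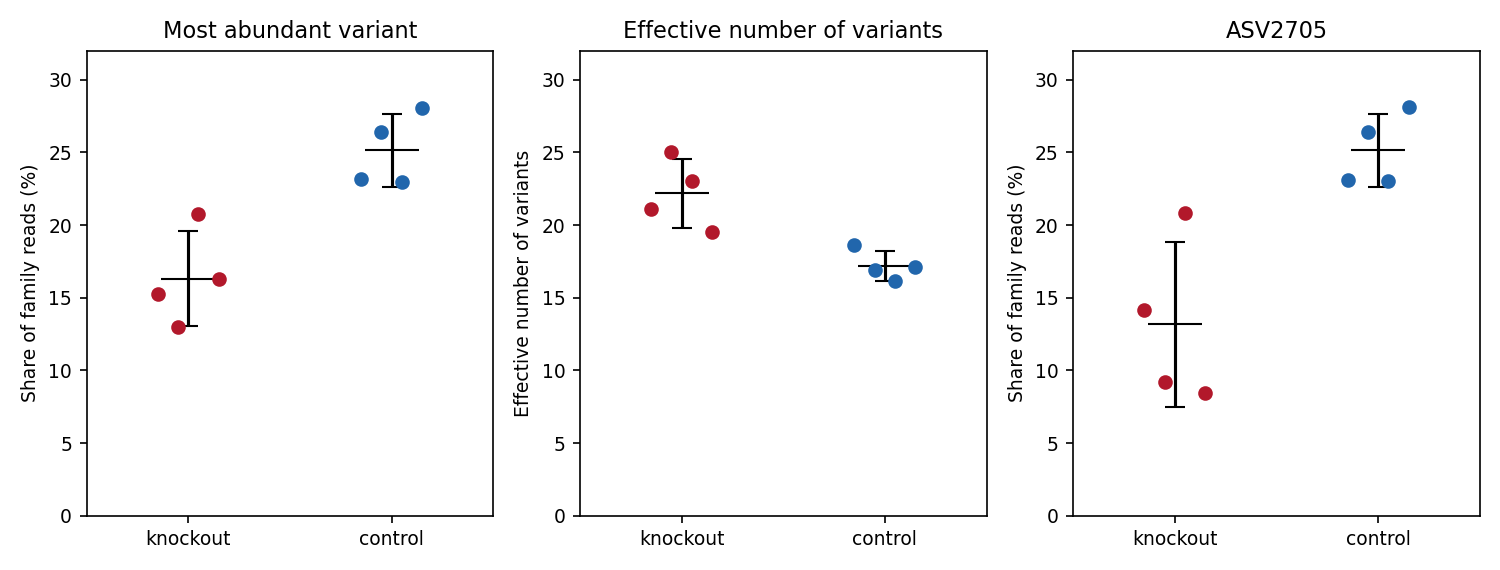
Dominance within Muribaculaceae, each point a mouse, bars the mean and SD of 4 mice. The share of family reads of the most abundant variant (left, %), the effective number of variants (middle) and the share of family reads of ASV2705 (right, %) do not overlap between knockouts and controls.

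Within the family, ASV2705 and ASV2784 took smaller shares in knockouts, and ASV2671, ASV2745 and ASV2752 larger ones. ASV2705 held 14.2%, 9.23%, 20.8% and 8.45% of family reads in knockouts 1 to 4 and 23.1%, 26.4%, 23.0% and 28.1% in controls 1 to 4. Knockout 3 came closest to the controls, and the other knockouts were further down. ASV2784 held 1.65%, 3.56%, 3.34% and 1.83% in knockouts and 4.14%, 8.21%, 5.40% and 5.82% in controls, again without overlap.

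In the opposite direction, ASV2671 held 15.2%, 7.06%, 9.49% and 8.09% of family reads in knockouts and 6.60%, 3.54%, 5.79% and 4.17% in controls. ASV2745 held 7.27%, 2.23%, 1.84% and 1.50% in knockouts and 0.716%, 1.03%, 0.636% and 0.572% in controls. ASV2752 held 0.650%, 0.330%, 0.215% and 0.141% in knockouts and 0.0764%, 0%, 0.133% and 0.119% in controls. Its 0 in control 2 allows up to 0.0571% of family reads. For the share of the own family, 3 of the 46 members that passed the filter thus lay wholly above the controls, where the background over all 265 ASVs is 3.4%, and 2 lay wholly below, where it is 2.26%. The count above became 6 without knockout 1, where the background is 8.63%, and 7 without knockout 4, where it is 6.2%. The count below became 4 without control 2, where the background is 5.41%.

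None of these 5 was called when the reads of each mouse were scaled to its family total and tested with edgeR over all 265 ASVs. ASV2705 had a log2 fold change of -0.93 ± 0.41 SE (unadjusted p = 0.0414, adjusted p = 0.333) and ASV2784 of -1.18 ± 0.49 (unadjusted p = 0.0330, adjusted p = 0.333). ASV2671 had 0.99 (adjusted p = 0.333), ASV2745 2.12 ± 0.67 (adjusted p = 0.292) and ASV2752 1.99 ± 1.29 (adjusted p = 0.560). On this scale 4 of the 46 members were higher in knockouts at an unadjusted p under 0.05, where 2.64% of all ASVs were, and 2 were lower, where 12.1% were. Over ASVs with reads in both genotypes, 2 of 44 members were higher, where 0.772% of ASVs were. Members had a median log2 fold change of 0.61 on this scale, all ASVs of -1.09 and ASVs outside the family of -1.31. ASVs outside the family were divided by Muribaculaceae reads too, so a higher family share in knockouts lowers them by construction. The background values on this scale are thus no yardstick for the members.

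Scaled to whole libraries, members mostly had positive fold changes and no member was called. With TMM factors, which assume that most variants do not change, edgeR called 0 of the 46 members, as it called 0% of the 265 ASVs. The smallest adjusted p of a member was 0.228. At an unadjusted p under 0.05, 21 members were higher in knockouts, where 10.6% of all ASVs were, and 0 were lower, where 2.26% were. Over ASVs with reads in both genotypes, 19 of 44 members were higher, where 8.49% of ASVs were. The median log2 fold change was 1.90 for members and 0.19 for all ASVs tested. The TMM factor was 0.52, 0.93, 1.38 and 0.70 in knockouts 1 to 4 and 1.17, 1.09, 1.34 and 1.24 in controls 1 to 4. A lower factor raises the scaled levels of a mouse. ASV2705 thus had a log2 fold change of 0.47, although its mean share of all reads was 7.13% in knockouts and 8.25% in controls. With total reads in place of TMM factors, 11 members were higher, where 6.42% of all ASVs were, and the medians were 1.37 and -0.33. With log2 library size as a covariate 0 members were higher, where 2.64% of all ASVs were. Standard errors were larger in that fit, such as 2.33 against 0.96 for ASV2745. The count was 12 without control 2 (background 6.56%), 12 without control 3 (7.81%) and 13 without control 4 (7%). It was 10 without knockout 1 and control 2 together (background 7.63%).

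**Figure D3:**
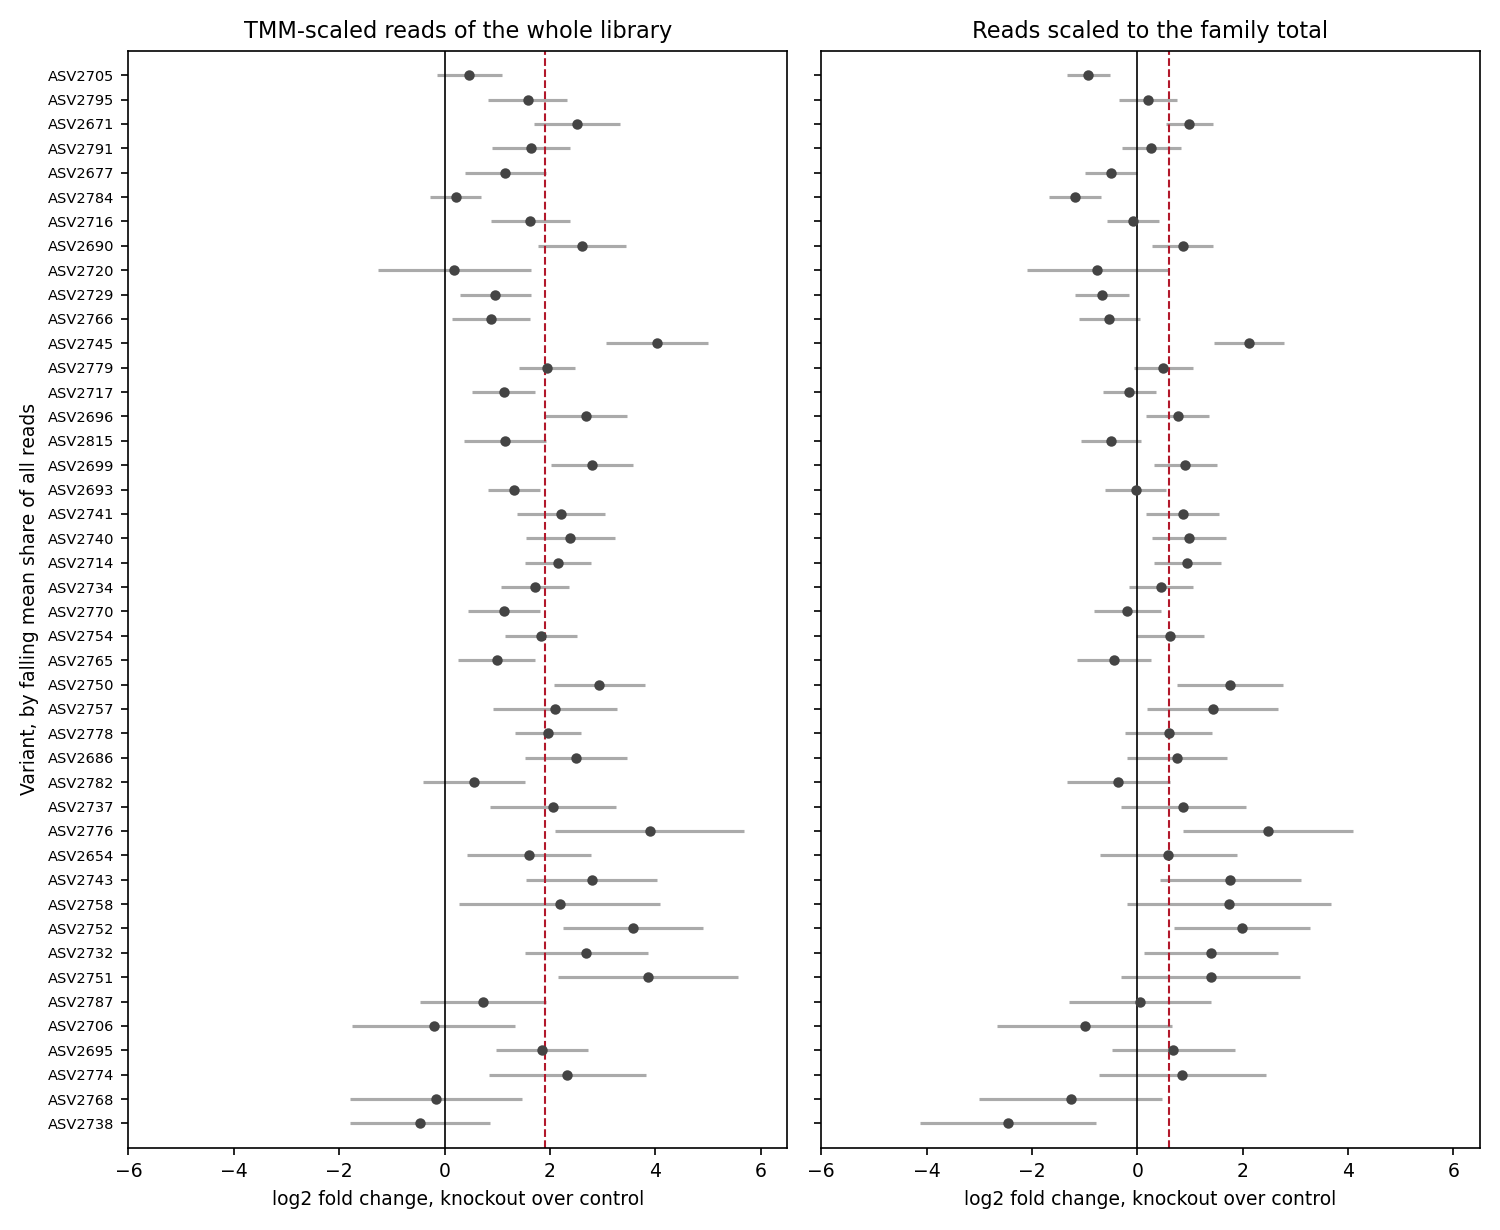
Fitted log2 fold change (knockout over control) with its standard error for the 44 tested variants that had reads in a control, in order of mean share. Left, reads scaled with TMM factors of the whole library; right, reads scaled to the family total; the dashed line is the median over the 46 tested variants, 1.90 on the left and 0.61 on the right.

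In share of all reads, all 4 knockouts lay above all 4 controls for 10 of the 46 members, where the background over all 265 ASVs is 3.77%. The 10 ASVs so placed in the whole table were these 10 members, namely ASV2690, ASV2745, ASV2779, ASV2696, ASV2699, ASV2734, ASV2737, ASV2752, ASV2732 and ASV2751. No member lay wholly below the controls, where the background is 6.04%. The number above was 17 without knockout 1, where the background is 9.41%, and 16 without control 1, where it is 6.9%. ASV2734 made up 0.875%, 0.762%, 0.881% and 0.669% in knockouts and 0.623%, 0.104%, 0.388% and 0.412% in controls. ASV2737 made up 0.278% ± 0.0284 of knockout reads, against 0.107% ± 0.0730 for controls (SD, n = 4 each), and had 0 reads in control 2.

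The 10 members of smallest p include 2 with 0 reads in every control, which passed the filter through knockouts alone. ASV2777 had 3641, 47, 162 and 0 reads in knockouts 1 to 4, and ASV2733 had 2052, 0, 188 and 43. Knockout 1 alone held 94.6% and 89.9% of these reads. Against the mean of the limits that 3 reads per control library allow, the mean share in knockouts was at least 82.0-fold higher for ASV2777 and at least 50.1-fold higher for ASV2733. Without knockout 1 it was at least 9.82-fold and 10.7-fold higher. Neither was called (edgeR adjusted p = 0.228).

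ASV2745 had the smallest p of any member, with 4.83%, 1.08%, 0.804% and 0.987% of all reads in knockouts and 0.376%, 0.140%, 0.198% and 0.206% in controls. Its log2 fold change was 4.03 ± 0.96 SE, 2.44 without knockout 1 and 1.66 ± 2.33 SE with library size as a covariate. ASV2750 made up 0.127%, 0.713%, 0.760% and 0.815% of all reads in knockouts and 0.101%, 0.0181%, 0.258% and 0.0746% in controls (log2 fold change 2.93 ± 0.86, with 2.33 without control 2 and 3.63 without control 3). Here knockout 1 lay among the controls and the other knockouts stood above them. ASV2714 made up 0.479%, 0.964%, 0.942% and 1.20% in knockouts and 0.520%, 0.111%, 0.271% and 0.284% in controls (log2 fold change 2.15 ± 0.63), with knockout 1 just below control 1. Of the same 10 members, ASV2699 had a log2 fold change of 2.79, ASV2696 of 2.67, ASV2690 of 2.61, ASV2778 of 1.96 and ASV2779 of 1.94, all with an edgeR adjusted p of 0.228. Without knockout 1 the value was 1.64 for ASV2699, 1.50 for ASV2696 and 1.25 for ASV2690. With library size as a covariate it was 0.75 ± 1.51 SE, 0.61 ± 1.53 and 0.090 ± 1.81. Without control 2 it was 1.99 for ASV2690.

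Knockout 1 carried a family of a different makeup. ASV2671, ASV2690, ASV2686, ASV2745, ASV2696 and ASV2699 together held 40.6% of its family reads, against 16.4%, 19.3% and 14.4% in knockouts 2 to 4 and 10.1 to 11.7% in controls. ASV2690 alone reached 4.77% of all reads there, against 1.08 to 1.59% in the other knockouts. In turn, ASV2720, at 1.92%, 0.928% and 2.00% of all reads in knockouts 2 to 4 and from 0.376 to 3.34% in controls, had 0 reads in knockout 1. ASV2706 also had 0 reads there, as in control 2, and so did ASV2758, as in controls 2 and 3. ASV2757 had 15 reads in knockout 1, against 280, 1607 and 1045 in the other knockouts. In controls 1 to 4 it had 126, 9, 59 and 266. ASV2791 with ASV2795 held 6.15% of family reads in knockout 1, the lowest of all mice, and 31.1% in knockout 4, the highest. ASV2766 was likewise lowest in knockout 1, with 0.840% of family reads, and highest in knockout 4, with 4.09%. These variants were singled out after their values were seen.

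On average, the makeup of the family was more alike among controls than among knockouts, where knockout 1 stood apart. The Bray-Curtis distance of family shares, 0 for identical and 1 for no shared reads, averaged 0.182 over the 6 pairs of controls, with a range from 0.108 to 0.251. It averaged 0.319 over the 6 pairs of knockouts, from 0.202 to 0.435, and 0.309 over the 16 pairs across genotypes. Controls 2 and 4 were the closest pair, although the family made up 13.6% of reads in one and 35.9% in the other. Knockout 1 was at least 0.344 from every other mouse, and the nearest mouse to knockout 3 was control 1, at 0.215. The pairs among knockouts 2 to 4 were at 0.202, 0.226 and 0.302, of which 0.202 and 0.226 lay within the range of the controls. The mice of each pair share no reads, but each mouse enters 7 distances, and no test was made.

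Correlations between variants in share of all reads were mostly positive, and their median depended on control 2 and on knockout 1. Over the 1035 pairs of the 46 members, the median Pearson correlation of log2 shares over 8 mice was 0.47, against 0.17 over all 34980 pairs of the 265 ASVs. After leaving out control 2, the mouse with the lowest family share, the median over member pairs was 0.23 and over all pairs 0.21. Without knockout 1 these medians were 0.65 and 0.12. No member pair passed the two-sided exact permutation test over all orders of the mice after Benjamini-Hochberg adjustment over all 34980 pairs, and 0% of all pairs did. The exact p was under 0.05 before adjustment for 235 of the 1035 member pairs, where it was for 13% of all pairs. On centred log-ratios, which set each variant against the mean of all ASVs tested, 7 member pairs passed, all positive, where 0.0543% of all pairs did, and no negative pair did, where 0.00286% of all pairs did. They were ASV2778 with ASV2779 and the 6 pairs among ASV2671, ASV2690, ASV2714 and ASV2734, each at the smallest p that the permutations can give (exact p = 2.48e-05, adjusted p = 0.0434). Centred log-ratios keep the family's own level, and the median r of member pairs was 0.65 on them, against 0.038 in shares of the family. In shares of the family, r was 0.98 for ASV2778 with ASV2779. For the 6 other pairs it ran from -0.15 (ASV2690 with ASV2714) to 0.78 (ASV2671 with ASV2690).

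Taken as shares of the family, which removes the family's own level, most of the 27 variants with at least 10 reads in every mouse fell into sets. ASV2734, ASV2782 and ASV2717 joined no set. The sets come from average-linkage clustering of the correlations, joined down to a mean r of 0.5, and are descriptions with no test. The 6 variants named above as high in knockout 1 are one of these sets, with a median r of 0.75 and a lowest r of 0.44. That list and this set are therefore the same description, and r in shares of the family was not computed without knockout 1. ASV2705, ASV2784 and ASV2729 formed another set with a median r of 0.65. It held 19.2%, 15.3%, 26.4% and 11.7% of family reads in knockouts and 29.8%, 38.0%, 34.0% and 37.8% in controls, without overlap. ASV2705 and ASV2784, named above as lower in knockouts, made up most of this sum, so it restates them. ASV2729 by itself overlapped, at 1.42 to 3.37% in knockouts and 2.53 to 5.53% in controls. The r of this set was not computed within each genotype. ASV2677, ASV2815, ASV2716 and ASV2765 (median r 0.71, lowest 0.50) held 11.1% ± 4.30 and 14.6% ± 4.26. ASV2714, ASV2754, ASV2693, ASV2778 and ASV2779 (median r 0.68, lowest 0.15) held 8.87% ± 3.20 and 6.49% ± 1.79, and both of these sets overlapped between genotypes. Such correlations share the 8 mice, the depth of each library and the fixed sum of the family.

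**Figure D4:**
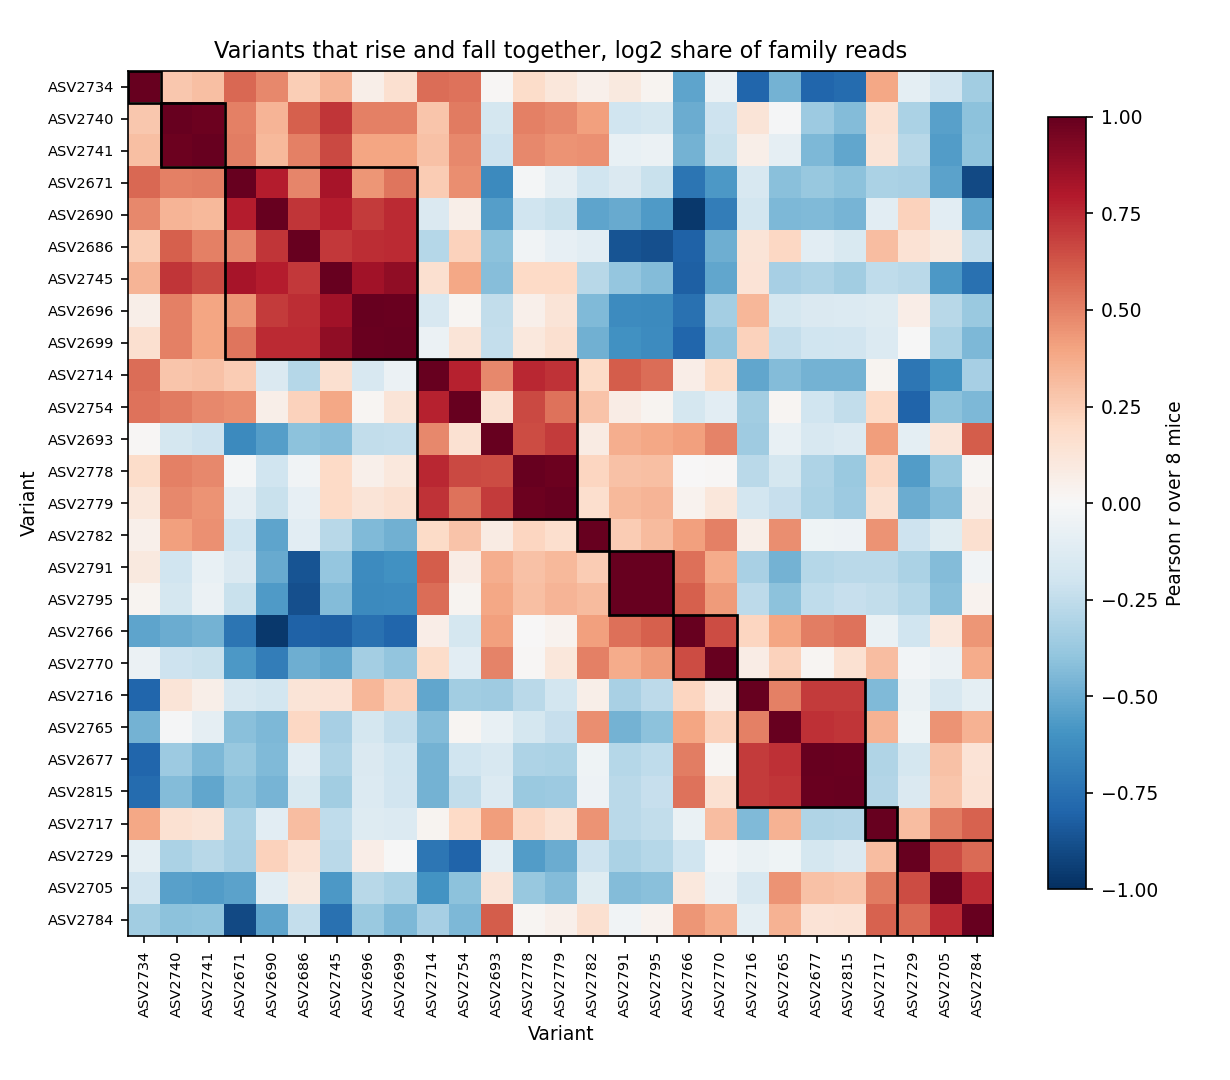
Pearson correlation over 8 mice between the log2 shares of family reads of the 27 variants with at least 10 reads in every mouse, red for positive and blue for negative. Black boxes mark sets joined at a mean r of 0.5 or more, and a variant boxed alone joined no set. The box of 6 variants from ASV2671 to ASV2699 has a median r of 0.75 and that of ASV2729, ASV2705 and ASV2784 one of 0.65.

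Among these 27 variants, the 4 lowest correlations in share of all reads all involved ASV2784, the steady variant. Its r was -0.41 with ASV2745, -0.38 with ASV2699, -0.37 with ASV2696 and -0.20 with ASV2690. The rho was -0.21, -0.24, -0.24 and -0.36, with two-sided exact permutation p of 0.313 or higher for each r (adjusted p 0.687 or higher) and 0.389 or higher for each rho (adjusted p 0.806 or higher). Leaving out knockout 1 and control 2, the mice farthest from the median, gave r of -0.64, -0.60, -0.52 and -0.69. All 4 turned positive on centred log-ratios, from 0.69 to 0.80, a scale that keeps the family's own level. In shares of the family, which remove that level, they stayed negative, at -0.75, -0.45, -0.37 and -0.52. Their sign depended on the scale, so no opposed movement can be stated from them.

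In 5 pairs of variants the ratio varied little between mice, with an SD of the log2 ratio under 0.3. ASV2791 had 0.896, 0.817, 0.970 and 0.901 reads per read of ASV2795 in knockouts 1 to 4 and 0.836, 0.791, 0.873 and 0.845 in controls 1 to 4. Over the same mice the share of ASV2795 itself varied 13.3-fold. The SD of the log2 ratio was 0.093, where counting error alone would give about 0.054. ASV2696 had 1.13, 1.19, 0.989 and 1.11 reads per read of ASV2699 in knockouts and 1.20, 1.25, 1.21 and 1.23 in controls, so every control lay just above every knockout. Its SD of 0.110 was close to the 0.108 of counting error, although the variants were 10.2 and 11.3 times as high in knockout 1 as in control 2.

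ASV2677 had from 2.74 to 3.48 reads per read of ASV2815, with an SD of the log2 ratio of 0.112 (counting error 0.076). ASV2740 had from 0.718 to 1.04 per read of ASV2741, with an SD of 0.175 (counting error 0.140). ASV2778 had from 0.260 to 0.383 per read of ASV2779, with an SD of 0.183 (counting error 0.128). The 5 pairs share no variant, and except for ASV2696 over ASV2699 the ratios overlapped between knockouts and controls. They were the pairs with an SD under 0.3 among the 351 pairs of the 27 variants, whose median SD was 0.95, and the next pair, ASV2714 with ASV2754, had an SD of 0.42. Outside the family, 3 of 450 pairs within a same family had an SD under 0.3, with a median of 1.36. Without knockout 1 the number of member pairs under 0.3 was 9.

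Among the 27 variants, the same 5 pairs had the highest correlations in share of all reads. A steady ratio between variants whose shares vary widely implies a high r, so the values below restate the ratios and are no separate support. The r was 0.997 for ASV2791 with ASV2795 (rho 0.976), 0.996 for ASV2696 with ASV2699 (rho 1), 0.992 for ASV2677 with ASV2815 (rho 0.976), 0.992 for ASV2740 with ASV2741 (rho 1) and 0.985 for ASV2778 with ASV2779 (rho 0.905). Two-sided exact permutation p-values of r ran from 2.48e-05 to 0.000372, and adjusted over all pairs from 0.0723 to 0.149. Those of rho ran from 4.96e-05 to 0.00456, and adjusted from 0.124 to 0.298. Leaving out the 2 mice farthest from the median of the first variant gave r of 0.983 or higher for all 5. Taken as deviations from the mean of each genotype, r was 0.952 or higher. The sixth pair, ASV2699 with ASV2745, had an r of 0.974 (rho 0.976, exact permutation p of r = 0.000546, adjusted p = 0.150), 0.916 without the 2 mice, and a ratio that ranged from 0.599 to 2.45.

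**Figure D5:**
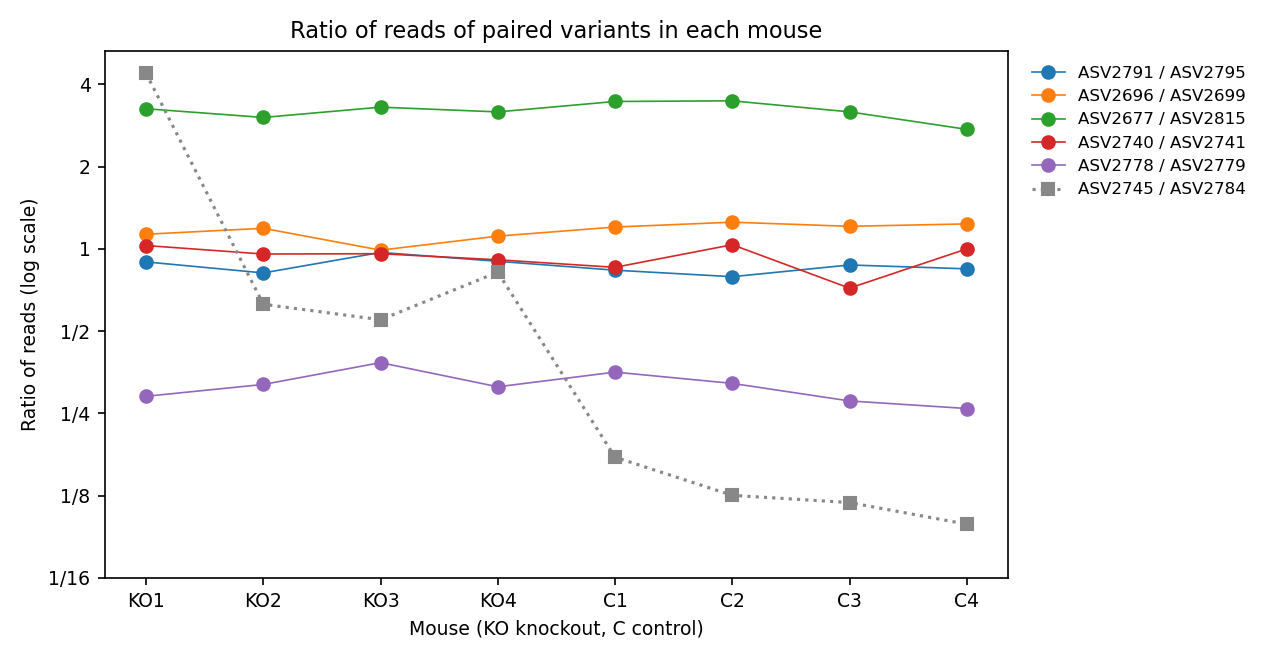
Ratio of reads of paired variants in each of the 8 mice, on a log scale; lines only join the points of a pair. The 5 steadiest pairs (circles) stay within narrow ranges, such as 0.791 to 0.970 for ASV2791 over ASV2795, while ASV2745 over ASV2784 (grey squares), a pair with low correlation, ranges from 0.0982 to 4.39.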

How the data were processed

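The authors deposited counts of reads per ASV, made with DADA2 as the table's name states. Per the labels' protocols, the 16S V4 region of stool DNA was amplified and sequenced in paired ends on a MiSeq. R 4.5.1 and limma appear in the submitters' processing notes, with no role. How reads were filtered, how chimeras were removed and which taxonomy was used is not given in the sources used here. The members and lists were chosen with earlier results of these data known.

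The test was that of edgeR 4.0.16, run in R 4.3.3 over the 265 ASVs that reached 10 reads in 3 or more mice (TMM factors, robust quasi-likelihood test, Benjamini-Hochberg adjustment over all ASVs, threshold 0.05), and over 39 families likewise. Correlations used log2 shares with 0.5 reads added. Dominance used 100 draws. Python 3.11.15, NumPy 2.4.6, SciPy 1.17.1 and pandas 2.3.3 were used. The scripts were tested on simulated data. For edgeR, recovery of planted changes was required only with less spread between mice than these data have. Recovery at the spread of these data is not given here.

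Named variants are the 12 of highest mean share, the 10 of smallest p, those with a genus name, the highest of each mouse, the 6 highest, 4 lowest and 5 steadiest pairs, the 5 of largest and 5 of smallest spread, and those without overlap in share of the family. Alternatives were total reads, TMMwsp, family reads or reads outside the family as library size, DESeq2 1.42.0, limma-voom (limma 3.58.1), rarefied counts, library size as a covariate, other filters and leaving out mice. Leaving out knockout 1 and control 2 together, and counting over ASVs with reads in both genotypes, were added after seeing the data.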

Additional observations from a re-analysis of the deposited data

Results flagged for a closer look

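For 60 groups of 4 mice examined (the family's share, its dominance and the named variants, in each genotype), 16 had a mouse far from the other 3, with a gap above Dixon's 95% critical value. Chance flags about 1 in 20 groups, but that rate is no yardstick for these 16, since variants were named for their spread, their p or a high level in a mouse. ASV2721 and ASV2718, seen in 1 mouse each, meet the criterion by construction. Knockout 1 was that mouse in 9 of the 16. In share of all reads it stood high for ASV2690 (4.77%, others 1.08 to 1.59%), ASV2745 (4.83%, others 0.804 to 1.08%), ASV2696 (3.27%, others 0.793 to 1.15%) and ASV2699 (2.89%, others 0.801 to 0.963%). It also stood high for ASV2777 (1.61%, others 0 to 0.125%), ASV2733 (0.905%, others 0 to 0.145%) and ASV2721 (0.135%, others at 0). It stood low for ASV2693 (0.551%, others 1.21 to 1.34%) and ASV2750 (0.127%, others 0.713 to 0.815%). ASV2696 with ASV2699 is a pair of steady ratio, so these are not separate events.

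Control 1 stood high among controls for ASV2779 (0.889%, others 0.451 to 0.494%) and its partner ASV2778 (0.315%, others 0.128 to 0.145%), for ASV2741 (0.851%, others 0.145 to 0.235%) and its partner ASV2740 (0.729%, others 0.150 to 0.168%), and for ASV2782 (0.832%, others 0.0518 to 0.165%). Control 2 had 0% for ASV2752 (others 0.0401 to 0.0426%), at the smallest depth. ASV2718 was at 0.00144% in knockout 2 and at 0 in the other knockouts, which is 2 reads and shows presence in 1 mouse and no more.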

How the results depend on the processing

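The family stayed uncalled in all 18 alternatives, with log2 fold changes from 0.052 (library size as a covariate, SE 1.43) to 2.13. The adjusted p ran from 0.233 to 0.992. No member was called in any of 19 alternatives. The number of members higher at an unadjusted p under 0.05 was 21, where 10.6% of all ASVs tested were. It was 11 with total reads (background 6.42%), 4 with family reads as library size (2.64%) and 0 with library size as a covariate (2.64%). Without knockout 1 and control 2 together it was 10 (7.63%). Leaving out each mouse it ran from 12, as without control 2 (6.56%), to 20 without control 1 (27 of 261 ASVs). With family reads as library size 2 were lower, where 12.1% of all ASVs were, which is no yardstick on that scale. Leaving out each mouse, the members wholly above controls in share of all reads numbered 10 to 17, the 17 without knockout 1 (background 9.41%). In share of the family they numbered 3 to 7, the 7 without knockout 4 (background 6.2%). Those wholly below in share of the family numbered 2 to 4, the 4 without control 2 (background 5.41%). Member pairs called numbered 7 with centred log-ratios, all positive, where 0.0543% of all pairs were. Steady pairs numbered 5 to 9 leaving out each mouse. With all family reads in place of drawn ones, the group means of the share of the most abundant variant and of the effective number moved by less than 1 SD. They did so too leaving out each mouse, but leaving out 1 of 4 mice cannot move a mean by 1 SD, so those runs decide nothing.

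ASV2705 (log2 fold change 0.47) turned to -0.21 with total reads, -0.93 with family reads, -0.73 with the covariate, and -0.39 without knockout 1 and control 2. ASV2784 (0.21) turned to -0.37, -1.18, -0.29 and -0.21 in the same settings, to -0.033 with TMMwsp and to -0.12 with DESeq2. Leaving out each mouse, ASV2705 ran from -0.11 to 0.74 and ASV2784 from -0.26 to 0.35. The r of ASV2784 on centred log-ratios was 0.69 with ASV2745, 0.77 with ASV2699, 0.80 with ASV2696 and 0.76 with ASV2690. As deviations from genotype means the last 3 were 0.014, 0.0023 and 0.20, and leaving out each mouse gave -0.75 to 0.028 with ASV2696 and -0.79 to 0.28 with ASV2690. In shares of the family, r of ASV2784 with each of these variants stayed negative, from -0.75 to -0.37. The cause was not tested. Pairs were also tested in shares of the family, but those calls are left out here, since their p is adjusted over the members alone. No paired analysis was possible because the labels give each mouse a number of its own.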
